A study of Homo sapiens with 6 samples.

Results

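CD180, its partner LY86, the Toll-like receptor genes TLR1, TLR6, TLR7, TLR9 and TLR10, and the signalling genes MYD88, IRAK1 and IRAK4 were followed in a B cell lymphoma line after depletion of PRDM11. These 10 genes were taken by symbol from a deposited table of 34675 genes, and each had 1 row. U2932 is an established human cell line, derived from diffuse large B cell lymphoma. The cells were infected with ShPRDM11, a hairpin against the PR domain gene PRDM11, or with ShScramble, the scrambled control hairpin in the pLKO-puro vector. Each group had 3 samples, all were selected with puromycin for 3 days, and gene expression was measured by RNA sequencing. A single hairpin served each group. Nothing in the labels says whether these were separate cultures, so p-values measure the spread of these samples only, and that spread may be technical.

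The table names its conditions A and B only, and no label or header ties either of them to the knockdown. Every difference is therefore written as A over B. For PRDM11 itself the authors' deposited table gives 288 normalised reads in condition A against 542 in condition B, 1.88-fold more in B (DESeq adjusted p = 1.76e-08). A normalised read is a read count divided by the library's size factor. The whole reads of each library were recovered from the condition means, and the libraries are numbered within a condition by falling size factor, from 1.21 to 0.768 in condition A and from 1.09 to 0.951 in condition B. The means summed to 43812481 in condition A and 41847907 in condition B. B cell genes were abundant in both conditions, with 84146 and 71390 normalised reads of MS4A1 and 35652 and 35450 of PAX5 in the authors' deposited table.

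Toll-like receptors recognise microbial products through leucine-rich repeats. TLR1 and TLR6 pair with TLR2 at the cell surface, TLR10 belongs to the same subfamily, and TLR7 and TLR9 sense RNA and DNA in endosomes. Nearly all of them signal through the adaptor MYD88, which recruits the kinases IRAK4 and IRAK1 and leads to NF-kB. CD180, also called RP105, has the repeats but lacks the signalling domain, needs the secreted protein MD-1 encoded by LY86 to reach the surface of B cells, and tunes their growth and their response to lipopolysaccharide.

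CD180 and LY86 encode the partners of a single surface complex, and the bases before their start sites are shown as a description. Both windows were picked after the values had been seen, and a link between letters and values was not tested. The windows are the 250 bases before the RefSeq start in build GRCh38.p14, for CD180 chr5:67196800-67197049 on the minus strand and for LY86 chr6:6588470-6588719 on the plus strand. Both strands were searched for TGANTCA (AP-1, with any middle base) and GAGGAA (PU.1), and capitals mark the matches. Patterns for NF-kB and interferon response were also searched once and are not reported here.
CD180: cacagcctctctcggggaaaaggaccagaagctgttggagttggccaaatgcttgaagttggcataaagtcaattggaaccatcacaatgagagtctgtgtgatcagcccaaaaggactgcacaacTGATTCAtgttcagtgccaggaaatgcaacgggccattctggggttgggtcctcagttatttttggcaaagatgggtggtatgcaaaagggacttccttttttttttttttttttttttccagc
LY86: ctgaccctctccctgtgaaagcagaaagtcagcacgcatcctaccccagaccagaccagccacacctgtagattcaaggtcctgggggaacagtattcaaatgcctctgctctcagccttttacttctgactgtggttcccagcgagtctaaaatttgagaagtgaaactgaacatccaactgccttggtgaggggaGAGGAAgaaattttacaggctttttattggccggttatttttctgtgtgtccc
The CD180 window held 1 match to the AP-1 pattern, from 124 to 118 bases before the start. The pattern allows any middle base, which is T in this match. It is looser than an AP-1 site, so the match is not called an AP-1 site here. Of 35116 windows 6.57% had at least 1 match to this loose pattern. The LY86 window held 1 PU.1 match, from 53 to 48 bases before the start, and 23.6% of the windows had at least 1. Windows were found for 7 of the 10 genes, all but TLR1, TLR7 and TLR10. A match to the AP-1 pattern occurred in 1 other of these windows, that of TLR9, with C as its middle base. PU.1 matches occurred also in the windows of TLR6, TLR9 and MYD88. A match describes the letters only.

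CD180 was lower in condition A. Its libraries held 1564, 1713 and 1904 normalised reads in condition A and 2898, 2917 and 2764 in condition B. All of condition A lay below all of condition B, and the spread inside each condition was small against the gap between them. The authors' deposited table has CD180 means of 1727 (A) and 2860 (B), or log2 -0.73, and its p implies a standard error of 0.12 (DESeq adjusted p = 1.46e-07). CD180 ranked 65 by p among all genes of the authors' deposited table, of which 2.54% had an adjusted p under 0.05. A limma test of log2 values from the recovered reads gave the same difference of -0.73 with a 95% interval of -0.93 to -0.53 (limma adjusted p = 0.0015). In bulk RNA, fewer cells with a transcript and less of it per cell cannot be told apart. The 3 coding blocks of CD180 lie on chromosome 5 between 66478688 and 66492469 in build hg19.

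LY86, which encodes the MD-1 chaperone of CD180, had nearly equal values. Its libraries held 3012, 3158 and 3118 normalised reads in condition A and 3576, 2874 and 2880 in condition B. The conditions overlapped, and library 1 of condition B was the highest. In limma the difference was 0.00 with a 95% interval of -0.21 to 0.21 on the log2 scale, so a difference of the size seen for CD180 lay outside the interval (limma adjusted p = 0.995). LY86 has its 5 coding blocks on chromosome 6 between 6588968 and 6654857 in hg19.

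The balance of the pair was therefore compared within each library. The ratio of CD180 to LY86 normalised reads was 0.519, 0.543 and 0.611 in condition A and 0.810, 1.010 and 0.960 in condition B. The ratio was lower in every library of condition A, and its log2 differed by -0.73, from -0.85 ± 0.12 (SD, n = 3) to -0.11 ± 0.17 (SD, n = 3). An exact two-sided permutation test of this ratio gave p = 0.1, the smallest that 3 against 3 allows (adjusted p = 0.133 over 4 pairs). The pairs were chosen after the values had been seen.

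**Figure D1:**
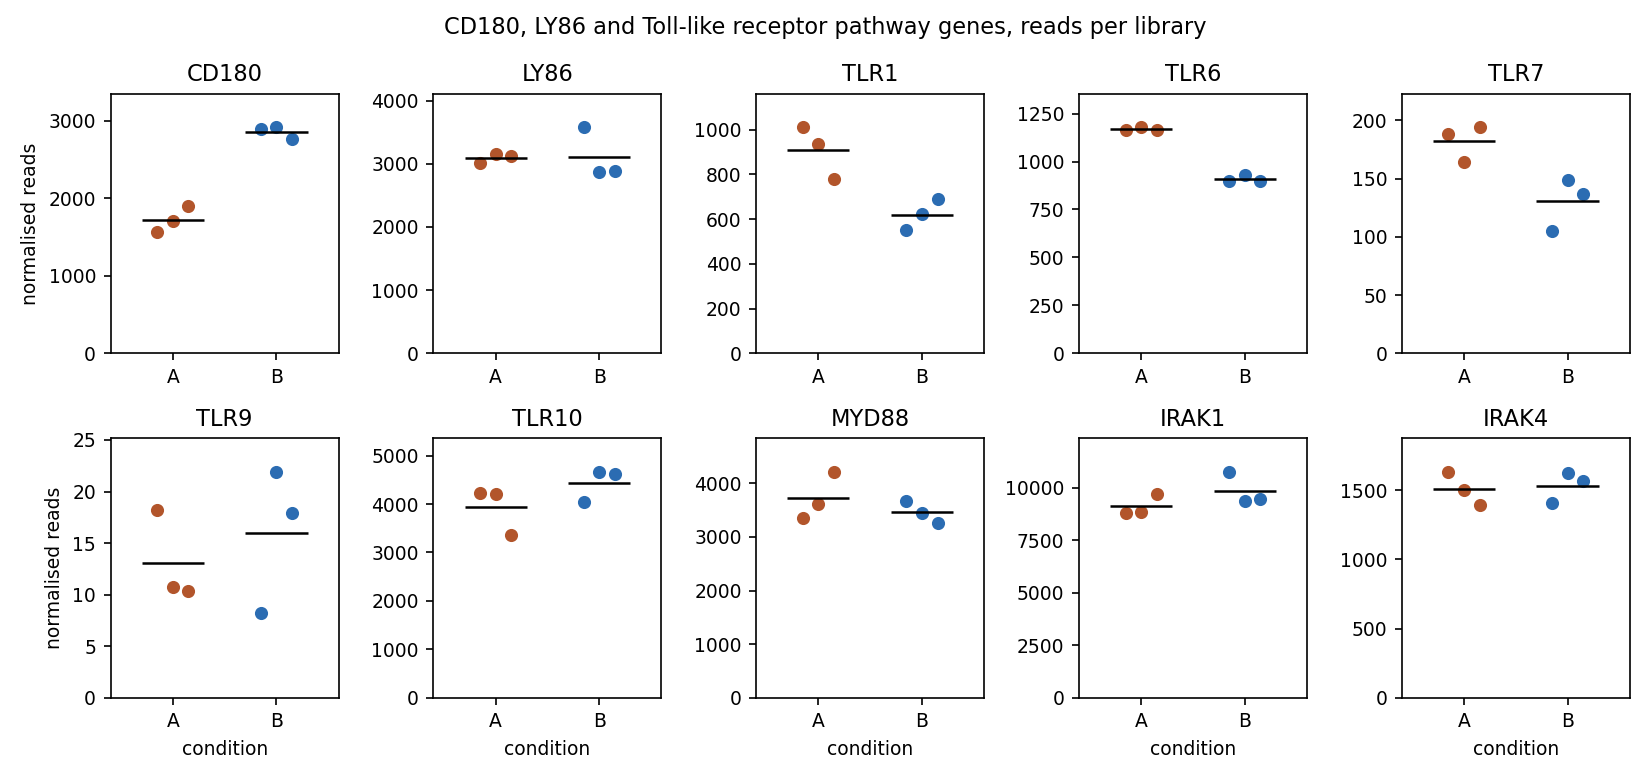
Normalised reads (vertical axes, from 0) of the 10 genes in the 3 recovered libraries of condition A (left, brown) and of condition B (right, blue), with a line at the mean of each condition. CD180 lies lower in condition A, TLR1, TLR6 and TLR7 lie higher, and the other 6 genes overlap between the conditions.

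TLR1, the receptor that pairs with TLR2 for triacylated lipopeptides, was higher in condition A. Its libraries held 1010, 935 and 778 normalised reads in condition A and 550, 624 and 688 in condition B. The conditions did not overlap, but library 3 of condition A and library 3 of condition B came close. The authors' deposited table puts TLR1 at 0.55 ± 0.14 (log2, implied SE), or 1.46-fold (DESeq adjusted p = 0.00812). The limma adjusted p was 0.0222, and it passed above 0.05 in 3 of the 6 fits with a library left out. These were 0.0994 with A library 2 left out (log2 0.53), 0.0634 with B library 1 left out (log2 0.47) and 0.0889 with B library 2 left out (log2 0.55). The log2 values with a library left out are ratios of the remaining condition means.

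TLR6, the partner of TLR2 for diacylated lipopeptides, held 1165, 1178 and 1162 normalised reads in condition A and 899, 931 and 898 in condition B. The libraries of a condition agreed closely with each other and did not overlap with those of the other. The authors' deposited table puts TLR6 at log2 0.36, which missed the threshold (DESeq adjusted p = 0.101). The limma difference was also 0.36, with a 95% interval of 0.19 to 0.53, and passed (limma adjusted p = 0.0209). The call for TLR6 thus differed between the tests, while the size did not.

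TLR10, a receptor found mainly in B cells, held 4227, 4206 and 3369 normalised reads in condition A and 4036, 4662 and 4611 in condition B. The conditions overlapped, and library 3 of condition A was the lowest. The limma difference was -0.18 with a 95% interval of -0.41 to 0.05 (limma adjusted p = 0.3). TLR10, TLR1 and TLR6 are neighbours on chromosome 4, with coding intervals of 38774779 to 38777211, 38798095 to 38800452 and 38828707 to 38831094 in hg19. The gaps between them are 20883 and 28254 bases. The log2 ratio of TLR1 to TLR10 in a library was -2.12 ± 0.05 (SD, n = 3) in condition A and -2.84 ± 0.08 (SD, n = 3) in condition B, with no overlap (exact permutation p = 0.1, adjusted p = 0.133). That of TLR1 to TLR6 was -0.37 ± 0.19 (SD, n = 3) and -0.56 ± 0.16 (SD, n = 3), with overlapping libraries (exact permutation p = 0.3, adjusted p = 0.3).

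Reads of TLR1 and TLR6 can be hard to tell apart, and the stretch that shows this is printed. In GENCODE 29 the coding sequences share an identical run of 218 bases, at bases 1379 to 1596 of TLR1 and 1394 to 1611 of TLR6, counted from the start codon.
TLR1 and TLR6: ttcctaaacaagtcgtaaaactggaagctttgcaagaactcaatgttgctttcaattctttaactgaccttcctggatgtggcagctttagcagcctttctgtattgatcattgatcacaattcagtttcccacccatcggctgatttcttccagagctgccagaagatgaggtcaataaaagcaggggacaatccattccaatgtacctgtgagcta
Of all 50-base stretches of TLR1 transcripts 5.33% also occur in TLR6, and 4.1% of those of TLR6 occur in TLR1. The TLR10 transcripts shared 1.01% of their stretches with any other gene. How reads that fit 2 genes were counted is not given in the sources used here. The sum of TLR1 and TLR6 was 2174, 2113 and 1940 in condition A and 1449, 1554 and 1586 in condition B. It does not depend on how such reads were split between the genes, but it does if they were dropped or counted for both. This sum had a log2 ratio of 0.44, with no overlap between the conditions.

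**Figure D2:**
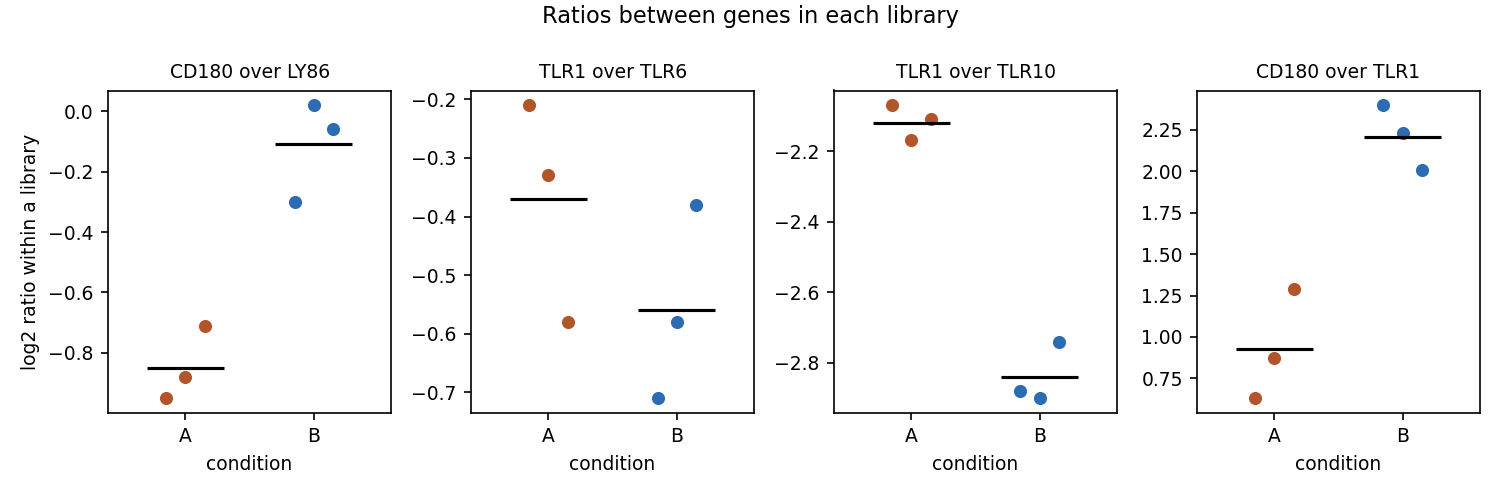
Log2 ratio of the normalised reads of 2 genes within each library (vertical axes, each with its own scale), for condition A (left, brown) and condition B (right, blue), with a line at the mean. CD180 over LY86, TLR1 over TLR10 and CD180 over TLR1 separate the conditions, and TLR1 over TLR6 does not.

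Few other genes have coding intervals within 250000 bases of this receptor cluster, and the authors' deposited table calls none of them higher in condition A. Over all its genes only 0.966% were called higher and 1.57% lower, so the lack of such a call among few genes is near background. AC021860.1 had almost no reads, with means of 0.434 (A) and 0 (B) in the authors' deposited table. TMEM156, a membrane protein gene, was lower in condition A, for which the authors' deposited table gives means of 1149 (A) and 1698 (B) (DESeq adjusted p = 0.00205). FAM114A1 stood at 169 and 168, also from the authors' deposited table (DESeq adjusted p = 1.0). The authors' deposited table has KLF3, a transcription factor gene, at 45.1 and 76.4 (DESeq adjusted p = 0.0658), and KLHL5 at 2343 and 2807 (DESeq adjusted p = 0.513), while limma called KLF3 (limma adjusted p = 0.0337). The distance was set after the values had been seen.

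TLR7 and TLR9 are the endosomal receptors among the 10 genes. TLR7, a sensor of single-stranded RNA, held 188, 164 and 194 normalised reads in condition A and 105, 149 and 137 in condition B. The conditions did not overlap, but TLR7 missed the threshold in the authors' deposited table (log2 0.48, DESeq adjusted p = 0.141) and in limma (95% interval 0.15 to 0.82, limma adjusted p = 0.0708). TLR7 lies on chromosome X with coding intervals between 12885698 and 12906774 in hg19.

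TLR9, the sensor of unmethylated CpG DNA, had only 22, 11 and 8 whole reads in condition A and 9, 23 and 17 in condition B. The libraries overlapped widely, and the 95% interval of the limma difference ran from -1.07 to 0.64, so the data do not exclude differences within that interval (limma adjusted p = 0.758). TLR9 reads are uncertain for another reason. In GENCODE 29 the gene model AC097637.1 covers 86.3% of the exon bases of TLR9 on the same strand, and 84.9% of the 50-base stretches of TLR9 occur in it. The authors' deposited table has no row for AC097637.1, and the reason is not stated. Whether that model was in the annotation used for counting is not given in the sources used here. Nor is what was done with reads that fit both. The low count therefore does not give the level of TLR9.

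MYD88, the adaptor shared by these receptors, held 3353, 3614 and 4211 normalised reads in condition A and 3670, 3447 and 3267 in condition B. Library 3 of condition A was the highest, and the conditions overlapped. The limma difference was 0.10 with a 95% interval of -0.11 to 0.31 (limma adjusted p = 0.526). IRAK4, the kinase that acts first after MYD88, held 1631, 1500 and 1396 in condition A and 1409, 1621 and 1566 in condition B. IRAK1, which IRAK4 phosphorylates, held 8805, 8854 and 9701 in condition A and 10747, 9353 and 9470 in condition B. Neither kinase separated the conditions, and their limma intervals were -0.23 to 0.18 and -0.29 to 0.07 (limma adjusted p = 0.899 and 0.408). The MYD88 gene lies on chromosome 3 (coding intervals 38180153 to 38182774 in hg19), IRAK4 on chromosome 12 (44161915 to 44180515) and IRAK1 on chromosome X (153276394 to 153285263).

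**Figure D3:**
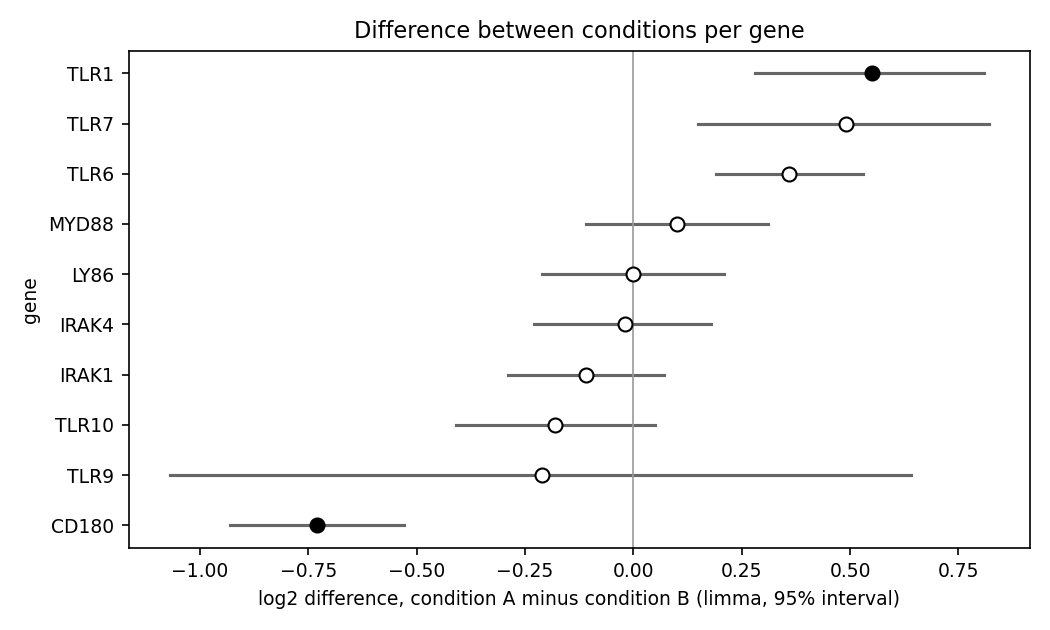
Limma log2 difference (horizontal axis, condition A minus condition B) of the 10 genes with its 95% interval, from log2 of the recovered normalised reads plus 1. Filled points had an adjusted p under 0.05 in the authors' deposited table. CD180 at -0.73 and TLR1 at 0.55 are filled, and the intervals of TLR6 and TLR7 also lie above 0.

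Of the 10 genes, then, CD180 was called lower and TLR1 higher at an adjusted p under 0.05 in the authors' deposited table. Over all its genes 1.57% were called lower and 0.966% higher in condition A, and 9 of the 10 genes averaged 50 reads or more. Of the 13565 genes above that level 6.04% were called in either direction, 2.18% higher and 3.86% lower. The limma test called 3 of the 10 genes, TLR6 being the third, against 9.23% of the 16629 genes it tested. The conditions did not overlap for CD180, TLR1, TLR6 and TLR7, that is for 4 of the 9 genes that average 50 or more, and for 34.3% of all such genes with recovered reads. A share of 4 in 9 is near that background. The median log2 ratio of the 9 genes was -0.01, beside -0.002 for all genes averaging 50 or more. Library 3 of condition A, with the smallest size factor, was the highest of its condition for CD180, TLR7, MYD88 and IRAK1. It was the lowest for TLR1, TLR6, TLR9, TLR10 and IRAK4, and lay between the others for LY86. How often it is highest or lowest over all genes was not counted. Its part in these values was not tested beyond the fits without it.

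Levels were compared per kilobase of exon, with exon lengths of GENCODE 29. LY86 stood at 2470 ± 207 (SD over 6 libraries) normalised reads per kilobase and IRAK1 at 2370 ± 177, and their libraries overlapped. TLR10 at 993 ± 111 and MYD88 at 901 ± 84.9 followed, also overlapping. CD180 averaged 405 ± 111, but this mean covers 305 ± 30.1 (SD, n = 3) in condition A and 505 ± 14.7 (SD, n = 3) in condition B. IRAK4, at 270 ± 18.2, overlapped with the CD180 range. TLR6 at 172 ± 23.6 and TLR1 at 168 ± 39.6 overlapped with each other, with TLR1 per kilobase at 200 ± 26.1 (SD, n = 3) in condition A and 137 ± 15.2 (SD, n = 3) in condition B. TLR7 at 30.0 ± 6.36 lay below these 8. TLR9 reads gave 3.76 ± 1.41, which is not ranked because of the overlap with AC097637.1. Levels per kilobase were ranked among 16102 genes with recovered reads that averaged 10 reads or more. LY86 was at percentile 98.4, TLR10 at 90.5, CD180 at 72.9 and TLR7 at 25.2. Genes with a condition mean above 10000 were not recovered and are missing from this comparison, so these percentiles may be too high.

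**Figure D4:**
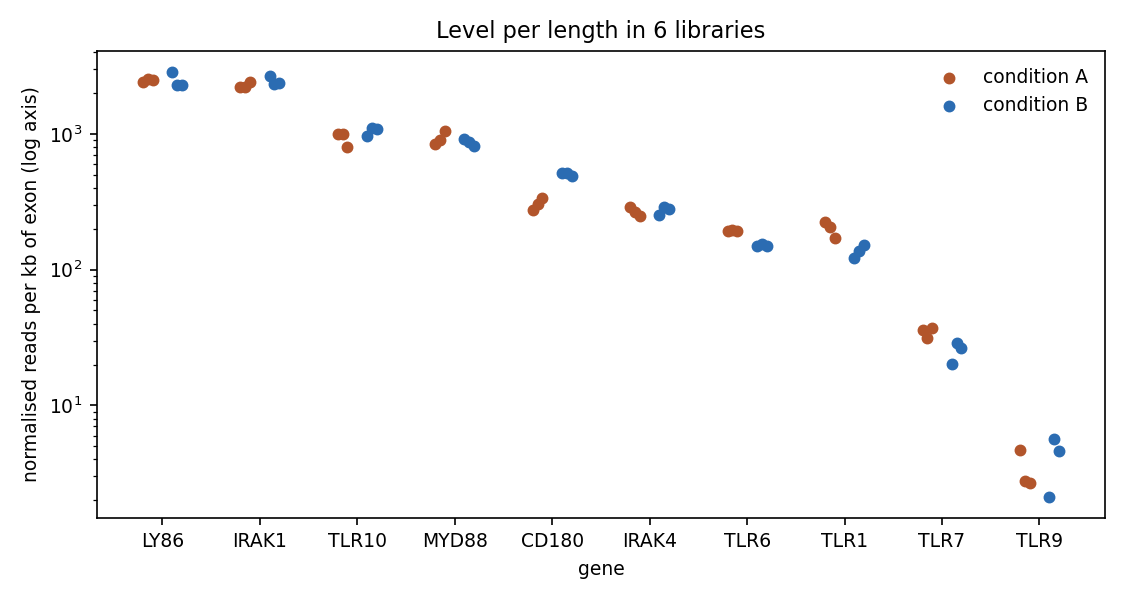
Normalised reads per kilobase of exon (vertical log axis) for the 10 genes, with 3 libraries of condition A (brown) and 3 of condition B (blue) each. The genes run from LY86 at 2470 to TLR7 at 30.0, TLR9 at 3.76 is shown but not ranked because its reads are uncertain, and CD180 is the gene with the widest gap between its conditions.

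The genes whose pattern over the 6 libraries was nearest to that of CD180 were LINC01754, SOGA2, GYLTL1B, ALDOC and SCAMP5. Nearness was the root mean square distance of log2 values centred on each gene's mean, and it was 0.0338 to 0.05 for these, against a median of 0.393 over 12580 genes that average 50 reads or more. ALDOC, an aldolase of glycolysis, held 715, 789 and 835 normalised reads in condition A and 1337, 1402 and 1253 in condition B. SCAMP5, a secretory carrier membrane protein, held 557, 657 and 720 in condition A and 1062, 1158 and 1060 in condition B. The authors' deposited table puts the 5 at log2 -0.77 to -0.70, a direction and size that choosing them by nearness to CD180 fixes. Among the other 9 of the 10 genes, 8 passed this filter, and the nearest of them was IRAK1 at 0.319, and TLR1 at 0.677 was the farthest.

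The rest of the pathway was read from 7 lists with 97 genes in the table besides the 10. Of these, 3 were called higher and 6 lower by the authors' deposited table, or 9.28%, beside 2.54% of all genes. For the 85 averaging 50 or more the share was 10.6%, beside 6.04%. Their median log2 ratio was -0.02. The lists were chosen with earlier results of these data known, so this share is no independent result. The libraries of the conditions did not overlap for 38 of 77 such genes with recovered reads, beside 34.3% of all genes of that level. Of the 9 called, CCL4, IL18 and PIM1 were called by limma with any 1 library left out. CR2, CTSS, NLRC3 and SARM1 lost the limma call without library 2 of condition A, library 2 of condition B or library 3 of condition B. IRAK2 lost it there and without library 1 of condition B, and CCL3 without library 2 of condition A. As background for the counts of each list below, 0.966% of all genes were called higher in condition A and 1.57% lower. For all genes averaging 50 or more these shares were 2.18% and 3.86%.

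CD180 acts in B cells together with the kinases LYN and BTK. Of 9 such partner genes the authors' deposited table calls 1 lower, CR2. CR2, the complement receptor of the B cell coreceptor complex, held 655, 667 and 644 in condition A and 785, 974 and 933 in condition B (authors' deposited table, log2 -0.45 at DESeq adjusted p = 0.0246). The conditions did not overlap, and the median of this list was -0.08. LYN, BTK, SYK, PIK3CD, PRKCB, VAV1, VAV2 and CD81 were not called.

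None of 8 other Toll-like receptor and coreceptor genes with a row was called in the authors' deposited table, and limma called 0 of the 5 it tested. TLR2, the shared partner of TLR1 and TLR6, had 112, 105 and 93.7 normalised reads in condition A and 90.7, 125 and 114 in condition B, and overlapped. TLR4, the lipopolysaccharide receptor, had 271, 295 and 324 in condition A and 236, 375 and 311 in condition B. LY96, which encodes MD-2, the TLR4 counterpart of MD-1, and CD36, a scavenger receptor, both stood at log2 -0.41 by the authors' deposited table (DESeq adjusted p = 0.507 for LY96 and 0.635 for CD36). TLR8 had 0, 3 and 3 whole reads in condition A and 0, 1 and 0 in condition B. The smallest unadjusted p of this list was 0.0476, that of LY96 in the authors' deposited table, and it was the 1 gene of the list under 0.05 before adjustment.

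Genes that move receptors to endosomes or cut them there had 1 call among 11. CTSS, a protease that cleaves endosomal receptors and the invariant chain, was lower in condition A, with 4037, 3635 and 3050 normalised reads against 4511, 4917 and 5146 in condition B. The authors' deposited table puts CTSS at log2 -0.44 (DESeq adjusted p = 0.0272). UNC93B1, which carries TLR7 and TLR9 to endosomes, had 1375, 1334 and 1387 in condition A and 1623, 1474 and 1472 in condition B, and was not called by the authors' deposited table (DESeq adjusted p = 0.929).

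Of 28 adaptors and signal relays the authors' deposited table calls 2 lower and 0 higher, beside 1.57% and 0.966% of all its genes. The median of the list was 0.08. IRAK2, a relative of IRAK1 that sustains signalling, held 100, 98.5 and 142 normalised reads in condition A and 187, 169 and 177 in condition B (authors' deposited table, log2 -0.65 at DESeq adjusted p = 0.00792). SARM1, a TIR domain protein with NADase activity, held 351, 417 and 411 in condition A and 599, 550 and 541 in condition B (authors' deposited table, log2 -0.52 at DESeq adjusted p = 0.00608). The libraries did not overlap for either gene. The adaptor genes TIRAP and TICAM1 stood at log2 0.52 and 0.61 without a call by the authors' deposited table (DESeq adjusted p = 0.24 for TIRAP and 0.311 for TICAM1), and limma called both (limma adjusted p = 0.0418 and 0.0293). Limma also called TAB1 (0.41, limma adjusted p = 0.0401) higher and the kinase gene CHUK (-0.46, limma adjusted p = 0.0371) lower. These genes were picked after their values were seen. Library 3 of condition A was the highest for TIRAP and TICAM1, with 523 of TIRAP and 4336 of TICAM1 against 377 and 2778 in library 1.

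Among 15 negative regulators NLRC3, a cytosolic restraint on TRAF6 signalling, was the 1 gene called in the authors' deposited table. It held 1052, 1017 and 1079 normalised reads in condition A and 1394, 1492 and 1467 in condition B (authors' deposited table, log2 -0.47 at DESeq adjusted p = 0.00895). In the list of the interleukin-1 family, whose receptors share MYD88, 5 of 11 genes had a row and 1 was called. This was IL18, a cytokine of that family, with 265, 263 and 249 normalised reads in condition A and 424, 406 and 393 in condition B (authors' deposited table, log2 -0.66 at DESeq adjusted p = 0.000922). Both genes were lower in every library of condition A.

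Genes that MYD88 signals induce in B cells were read next. Of 21 such genes the authors' deposited table calls 3 higher, beside 0.966% of all its genes, and the median of the list was 0.07. The chemokine genes CCL3 and CCL4 and the kinase gene PIM1 were higher in condition A, at log2 0.75, 1.17 and 0.71 by the authors' deposited table. CCL4 held 438, 606 and 662 normalised reads in condition A and 305, 220 and 234 in condition B. All 3 libraries of condition A lay above those of condition B for CCL4. The authors' deposited table does not call the other 18 genes of this list, NFKBIA and BCL2A1 among them. Of these, limma called CD83 higher in condition A (log2 0.26, limma adjusted p = 0.0441). CD83 was picked after its values were seen.

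**Figure D5:**
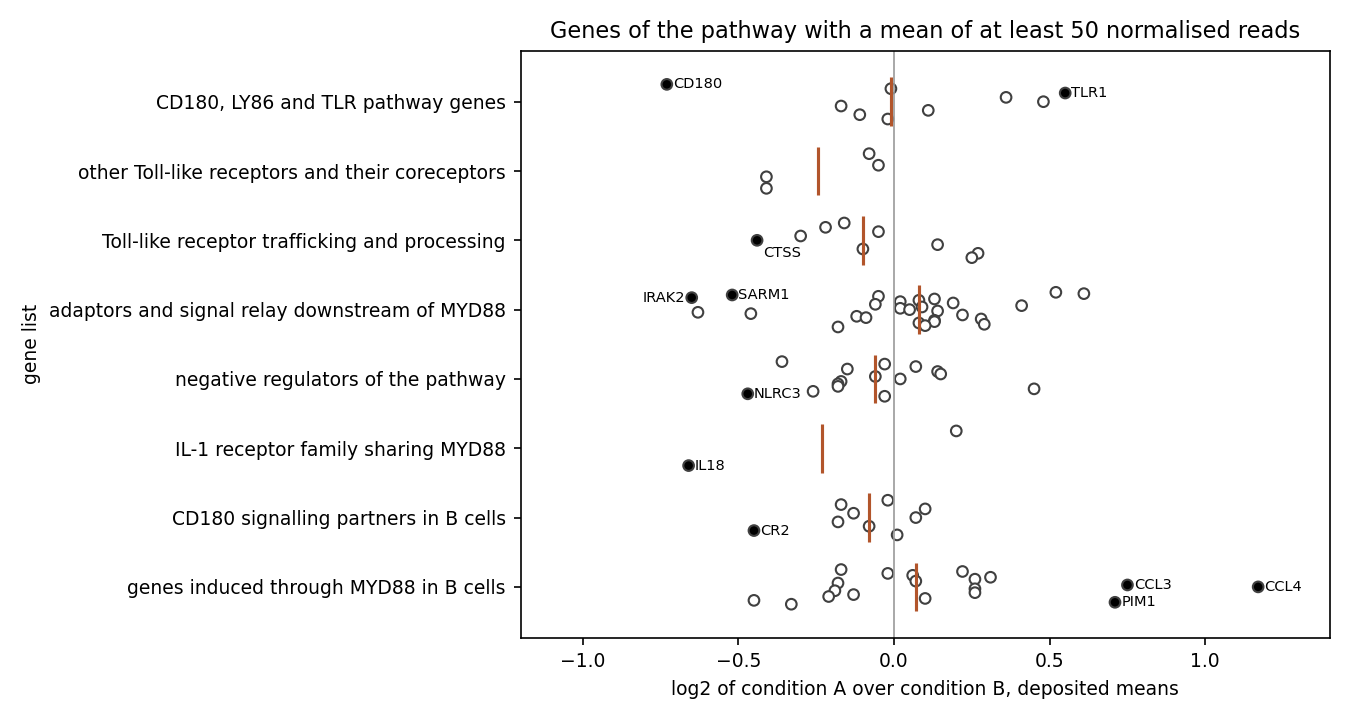
Log2 of condition A over condition B from the deposited means (horizontal axis) for genes with a mean of at least 50 in each list, with the median of the list as a brown bar. Filled points, with names, had an adjusted p under 0.05 in the authors' deposited table, and the points of every list lie on both sides of 0 but for the other Toll-like receptors and coreceptors, whose 4 points lie below 0.

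Markers of other cells that carry these receptors were low or uneven. In the myeloid list LYZ and MPO had at most 2 whole reads in a library, and the summed level of 7 markers was 885 to 1094 normalised reads in condition A and 1134 to 1300 in condition B, nearly all of it CD33. CD14 reached 53.4 normalised reads in a library and CSF1R 21.9. The 4 plasmacytoid dendritic cell markers summed to 265 to 338 in condition A and 334 to 388 in condition B, mostly SERPINF1, while LILRA4 had 3, 9 and 5 whole reads in condition A and 1, 0 and 1 in condition B. The 7 T cell and NK cell markers summed to 1097 to 1126 and 1520 to 1709, mostly CD247, which was lower in condition A (authors' deposited table, log2 -0.57 at DESeq adjusted p = 0.000615). CD4 reached 71.4 normalised reads in a library, CD8A 54.7, CD3E 22.1 and CD3G 3.31. The part of these markers in the results was not tested. Of 7 B cell markers the authors' deposited table calls CD79B and FCRLA higher in condition A. The share called higher was 0.966% of all its genes and 2.18% of those averaging 50 or more. Of these 7 markers 6 had a log2 ratio above 0 and 1 below, with a median of 0.24.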

How the data were processed

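RNA sequencing of U2932 cells with ShPRDM11 (3 samples) or ShScramble (3 samples) was used as 1 deposited comparison table. STAR, HTSeq 0.5.4p5 and DESeq 1.14.0 on hg19 are named in the submitters' processing notes. Which step each served, the annotation and strandedness: not given in the sources used here. Per the file headers, the deposited means are base means of each condition, a signal; their values fit whole reads divided by size factors and averaged. The deposited fold change is a ratio of B to A, and the deposited log2 fold change is its log2; signs are turned here to A over B. The deposited adjusted p-value is the Benjamini-Hochberg adjustment of the deposited p-value over all rows, as recomputed, and 0.05 was the threshold. A deposited track with a score per gene gave coding intervals only; 92.5% of 1348 genes with 1 interval had a length divisible by 3 with both ends counted. No column of values per sample was at hand.

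Each condition mean is a weighted sum of 3 whole numbers, so the reads of each library were recovered by an integer search up to a mean of 10000. Above a mean of 1500 only libraries at 0.7 to 1.4 times the mean were allowed. A single solution was found for 33728 of 33765 rows (A) and 33848 of 33848 rows (B). The recovered reads came to 27736572, 23430817 and 17893057 (libraries 1 to 3 of A) and 25088240, 23802909 and 21468597 (libraries 1 to 3 of B). They cover 52.6% and 54.4% of the summed means, so they are not the full depth. The search and limma were also run on data simulated from the recovered size factors with a fixed spread. The outcome is not reported here, and these runs do not cover other spreads. Limma 3.58.1 in R 4.3.3 was run on log2 of normalised reads plus 1 for genes with a mean of at least 10. With a library left out, the adjusted p is from limma, but the log2 value is the ratio of the remaining condition means. The standard error of a deposited log2 ratio is its size divided by the normal deviate of the deposited p, an approximation.

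The design assumed the deposited comparison as the main result. All 10 genes are named, then the called genes of each list or else up to 3 with the smallest p. PRDM11 and the 5 genes nearest to CD180 are also named. TLR2, TLR4, UNC93B1, TIRAP, TICAM1, TAB1, CHUK, CD83 and the chromosome 4 neighbours were added after their values were seen. So were genes of the cell marker lists outside this rule. Some genes named only as not called also lie outside it. The 10 genes and the lists were chosen with earlier results of these data known. Some genes of the lists are not reported here, and counts and medians are over the rest. Alternatives were other thresholds, filters, pseudocounts, scaling, lengths and each library left out. Exon lengths, overlaps and shared stretches come from GENCODE 29, promoter windows from RefSeq GRCh38.p14; neither is the build of the files, and their coordinates were not mixed.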

Additional observations from a re-analysis of the deposited data

How the results depend on the processing

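No paired analysis was possible because the columns of the table carry no replicate numbers and the recovered libraries match no label. CD180 kept its direction and its call under every alternative run, with a log2 ratio of -0.80 to -0.66 when 1 library was left out. TLR1 kept its direction everywhere, at 0.47 to 0.65, but lost its call without library 2 of condition A or library 1 or 2 of condition B. TLR6 passed the threshold at 0.36 when the deposited p was adjusted over genes with a mean of at least 50 only (adjusted p = 0.0431). It also passed at 0.36 to 0.38 in the 4 limma fits on all libraries. In 3 of the 6 fits without a library TLR6 passed too, and the log2 ratio of the remaining condition means was 0.35 to 0.37. The number of the 10 genes called was 2 as reported, 1 to 3 with a library left out, and 1 without library 2 of either condition. The 9 calls among 97 pathway genes became 14 of the 79 that limma tested, 14 with a pseudocount of 5, 14 with upper quartile scaling, 15 of 89 with no filter on low values and 3 to 18 of 79 with a library left out. They fell to 3 without library 2 of condition A and to 4 without library 2 or library 3 of condition B, and rose to 18 without library 1 and 16 without library 3 of condition A. Calls over all 16629 genes moved with them, from 1535 with all libraries to 387, 367 and 387 in the fits that gave 3, 4 and 4, and to 2183 and 1614 in those that gave 18 and 16; these fits have fewer samples. Genes near 0 changed sign: LY86 was 0.00 in limma, 0.00 with a pseudocount of 5, 0.00 with no filter and 0.02 with upper quartile scaling, and -0.06 to 0.11 with a library left out. TLR9 ran from -0.60 to 0.01 and IRAK4 from -0.08 to 0.03 with a library left out. With coding length in place of exon length the levels per kilobase were 6380 for LY86, 3880 for MYD88, 3860 for IRAK1, 1720 for TLR10, 1170 for IRAK4, 1160 for CD180, 435 for TLR6, 324 for TLR1 and 49.6 for TLR7, so the mean over 6 libraries of MYD88 moved above those of IRAK1 and TLR10, and that of IRAK4 above that of CD180, whose conditions differ. TLR9 had 8 to 23 reads a library, which limits its difference.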
